A study of Arabidopsis thaliana with 36 samples.

Results

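Calcium-dependent protein kinases of Arabidopsis thaliana are described here by the transcript levels of 10 genes, CPK1 (AT5G04870), CPK2 (AT3G10660), CPK4 (AT4G09570), CPK5 (AT4G35310), CPK6 (AT2G17290), CPK11 (AT1G35670), CPK22 (AT4G04710), CPK28 (AT5G66210), CPK29 (AT1G76040) and CPK32 (AT3G57530), chosen by their locus identifiers among the 32833 loci of the deposited count tables. All 10 were found in both tables, and the reference annotation lists 24 further CPK genes, which are given beside them. Levels were measured by 3′ digital gene expression, which counts reads near the 3′ end of each transcript, in whole plants 7 days old, all of which had grown on agar with 25 mM sucrose before 1 day in liquid medium. The 36 libraries made 12 groups of 3, and the study's design describes 3 independent trials. One experiment compared stp1/4/13, a triple mutant of the sugar transporters STP1, STP4 and STP13, with the wild type Col and with fls2, a mutant of the flagellin receptor, at 2, 10 and 24 h after 1 µM flg22 in medium with 25 mM sucrose. The other used Col alone, sampled at 24 h in groups titled 2DG_1mM, Suc_25mM and Suc_0mM. The flg22 libraries at 10 h are in the same count table as those of this other experiment, and the flg22 libraries at 2 and 24 h are in a separate table. 2DG is 2-deoxy-d-glucose, a glucose analogue that is phosphorylated but hardly metabolised further, and was given at 1 mM in medium without sucrose. None of the groups of the flg22 experiment is a mock treatment, so fls2 plants, which received flg22 but lack its receptor, are its background; Col in Suc_25mM belongs to the other experiment and was not set against them. The alleles of the mutants are not given in the sources used here. Any effect of the fls2 or stp1/4/13 mutations themselves is part of every difference between genotypes.

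A calcium-dependent protein kinase joins a kinase domain to a calmodulin-like domain through an autoinhibitory stretch, so that binding of calcium releases its activity. The bacterial peptide flg22, bound by the receptor kinase FLS2, opens an influx of calcium within minutes, and several of these kinases then phosphorylate the oxidase RBOHD, WRKY transcription factors and other immune proteins. Their activity is set by calcium after translation, and the transcript levels given here do not measure it. Within the family, CPK4, CPK5, CPK6 and CPK11 are known as activators of flg22-responsive genes, CPK1 and CPK2 take part in defence and cell death downstream of intracellular immune receptors, and CPK28 restrains immune signalling by promoting turnover of the kinase BIK1. CPK4 and CPK11 also act in abscisic acid signalling, CPK32 phosphorylates the nitrate regulator NLP7, and CPK29 has been described as acting on PIN auxin carriers.

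The 250 bases before the annotated start were read from the RefSeq genome TAIR10.1 for the promoters of CPK5 and CPK28, which are shown because each of these 2 genes was higher in Col than in fls2 at 2 h and because each window holds a W-box, the element bound by WRKY factors. Capitals mark the W-box, searched as TTGACC or TTGACT on both strands, so that AGTCAA is the reverse complement of TTGACT.
CPK5, chr4:16801355-16801604, plus strand: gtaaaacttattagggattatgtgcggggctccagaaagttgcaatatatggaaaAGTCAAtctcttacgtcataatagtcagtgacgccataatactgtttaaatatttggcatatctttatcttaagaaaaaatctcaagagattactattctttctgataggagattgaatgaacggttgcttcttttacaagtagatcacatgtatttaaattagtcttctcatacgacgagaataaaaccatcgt
CPK28, chr5:26459655-26459904, minus strand: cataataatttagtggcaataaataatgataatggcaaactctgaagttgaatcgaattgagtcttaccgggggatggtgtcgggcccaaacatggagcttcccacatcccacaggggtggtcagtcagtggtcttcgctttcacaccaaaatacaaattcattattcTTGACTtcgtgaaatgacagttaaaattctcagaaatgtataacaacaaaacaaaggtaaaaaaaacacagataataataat
The W-box lay 195 bases before the start of CPK5 and 82 before that of CPK28. CPK2, which did not pass the test in any comparison, had 1 as well, 218 bases before its start. CPK1, CPK6, CPK11 and CPK32, also higher in Col than in fls2 at 2 h, had 0. With the windows of CPK29, which has masked bases, and CPK4 left out, 3 of 8 windows held a W-box, against 28.4% of all 27438 promoters of that length. The G-box CACGTG was in 0 of 8 windows, against 6.49% of all promoters, and CGCG, the core of the element bound by calmodulin-binding CAMTA factors, in 1 of 8, against 10.1%. These matches describe letters in the windows and carry no test.

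Total counts were 8.05 to 20.1 M per library. The genotypes were checked first on the mutated genes. FLS2 had 0.116, 0.109 and 0.226 CPM (counts scaled to the total count of the library) in the 3 fls2 libraries at 2 h, against 51.8, 32.4 and 47.8 CPM in Col. In stp1/4/13 at 2 h, STP1 had 2.99, 28.7 and 2.63 CPM, against 143, 162 and 166 CPM in Col, and STP13 7.37, 7.56 and 7.75 CPM, against 166, 177 and 165 CPM in Col. The second stp1/4/13 library at 2 h thus held more STP1 reads than the others. STP4 kept reads in the mutant, at 50.1, 64.5 and 44.9 CPM, against 317, 337 and 399.6 CPM in Col. Some libraries stood apart in these kinases: of the 9 genes other than CPK22, 7 were higher in Suc_0mM replicate 1 than in both other Suc_0mM libraries and 7 were lower in Suc_0mM replicate 2. In fls2, 7 were lower in replicate 2 at 2 h than in both others, and 7 higher in replicate 3 at 10 h. For 6 libraries of the sugar experiment the title and the treatment label exchange 2DG_1mM and Suc_25mM; titles were used, and every difference that involves either group rests on that choice.

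At 2 h after flg22, 8 of the 10 kinase genes were higher in Col than in fls2 and none was lower. Over all genes tested, 18.7% were called higher and 16.1% lower. Differences ranged from 0.94 (CPK5) to 1.94 (CPK29) on the log2 scale among those called, with a median of 1.42 over the 10 genes, against -0.021 over all genes. CPK2 and CPK22 did not pass the test. Calls are from edgeR's quasi-likelihood test with Benjamini-Hochberg adjustment over all genes, at an adjusted p below 0.05, and log2 differences are given ± SE. The question is which of these genes respond to flg22 through its receptor.

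Among the activators of flg22-responsive genes, CPK4 had 81.1, 78.5 and 61.2 CPM in Col, against 31.3, 20.2 and 33.4 CPM in fls2, a difference of 1.55 ± 0.22 (edgeR adjusted p = 2.2e-05). The lowest Col library was above the highest fls2 library. CPK5, a kinase of RBOHD, had 99.6, 105 and 102 CPM in Col, against 57.7, 56.9 and 62.8 CPM in fls2, a difference of 0.94 ± 0.15 (edgeR adjusted p = 8.6e-05). Its Col libraries lay within a few CPM of each other and the groups did not overlap. CPK6, the closest relative of CPK5 in this group, had 72.5, 52.6 and 80.6 CPM in Col, against 38.2, 31.9 and 34.4 CPM in fls2 (1.14 ± 0.20, edgeR adjusted p = 2e-04). CPK11, the closest relative of CPK4, had 55.0, 66.2 and 45.0 CPM in Col, against 25.8, 22.4 and 20.7 CPM in fls2 (1.42 ± 0.36, edgeR adjusted p = 0.0049). In both genes every Col library was above every fls2 library, with a wider spread in Col. In whole plants, more cells that express a gene and more of its RNA per cell cannot be told apart.

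Outside that group, CPK29 showed the largest difference of the 10 among those called. It had 76.1, 66.6 and 54.9 CPM in Col, against 21.5, 14.9 and 21.4 CPM in fls2 (1.94 ± 0.20, edgeR adjusted p = 5.1e-07), and the groups lay far apart. CPK32, the nitrate-signalling kinase, had 62.4, 53.2 and 52.2 CPM in Col, against 26.2, 13.1 and 20.7 CPM in fls2 (1.66 ± 0.20, edgeR adjusted p = 3.1e-06). CPK1 had 52.1, 58.3 and 47.4 CPM in Col, against 27.5, 17.7 and 21.4 CPM in fls2 (1.41 ± 0.15, edgeR adjusted p = 7.7e-07). The restraining kinase CPK28 had 40.3, 39.4 and 30.5 CPM in Col, against 22.1, 13.0 and 21.7 CPM in fls2 (1.13 ± 0.23, edgeR adjusted p = 0.00085). All 4 genes were without overlap between the genotypes, and the restraining kinase was thus higher in Col as the activating ones were. CPK2, a near relative of CPK1, had 8.19, 6.82 and 6.58 CPM in Col, against 6.21, 6.78 and 7.95 CPM in fls2, and its 95% interval of the log2 difference was -0.35 to 0.75. CPK22 stayed at or below 1.47 CPM in these libraries, and passed without replicate 3 (edgeR adjusted p = 0.012). Without replicate 2, whose fls2 library was low for 7 of these genes, CPK11 and CPK28 no longer passed (edgeR adjusted p = 0.12 and 0.065).

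Photosynthetic and heat shock transcripts also moved with this contrast, where 16.1% of all genes tested were lower and 18.7% higher. All 6 photosynthetic markers were lower in Col than in fls2, their summed level being 4734 to 7994 CPM in Col and 15491 to 19309 CPM in fls2, and 3 of 4 heat shock genes were higher, with sums of 8674 to 10623 CPM in Col and 2623 to 3549.5 CPM in fls2. Of 9 root markers, 2 were lower, a share near that of all genes, with sums of 123 to 155 CPM in Col and 159.8 to 201 CPM in fls2, and none was at 0. Their part in the kinase differences was not tested.

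The triple transporter mutant showed the same 8 genes above fls2 at 2 h. Over all genes tested, 15.8% were higher in stp1/4/13 and 9.82% lower. CPK29 had 57.2, 54.5 and 60.3 CPM in stp1/4/13 (1.70 ± 0.20 against fls2, edgeR adjusted p = 3.4e-06) and CPK32 46.6, 46.2 and 47.4 CPM (1.36 ± 0.20, edgeR adjusted p = 4.2e-05). These were the narrowest spreads of any group for CPK32. CPK4 had 89.8, 64.2 and 59.6 CPM (1.48 ± 0.22, edgeR adjusted p = 5.8e-05), its first library lying well above the other 2. The differences of CPK1, CPK5, CPK6, CPK11 and CPK28 from fls2 were 1.12, 0.78, 0.80, 1.25 and 0.96 on the log2 scale. This comparison shares its fls2 libraries with that of Col. Photosynthetic markers were lower in stp1/4/13 than in fls2 for 3 of 6 genes, with sums of 7776 to 15089 CPM in stp1/4/13, and heat shock genes higher for 2 of 4, with sums of 6119 to 13039 CPM; their part was not tested. Without replicate 1, CPK5, CPK6 and CPK11 no longer passed (edgeR adjusted p = 0.061, 0.11 and 0.086), and the count was 5; without replicate 2, CPK11 and CPK28 did not (0.16 and 0.12).

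**Figure D1:**
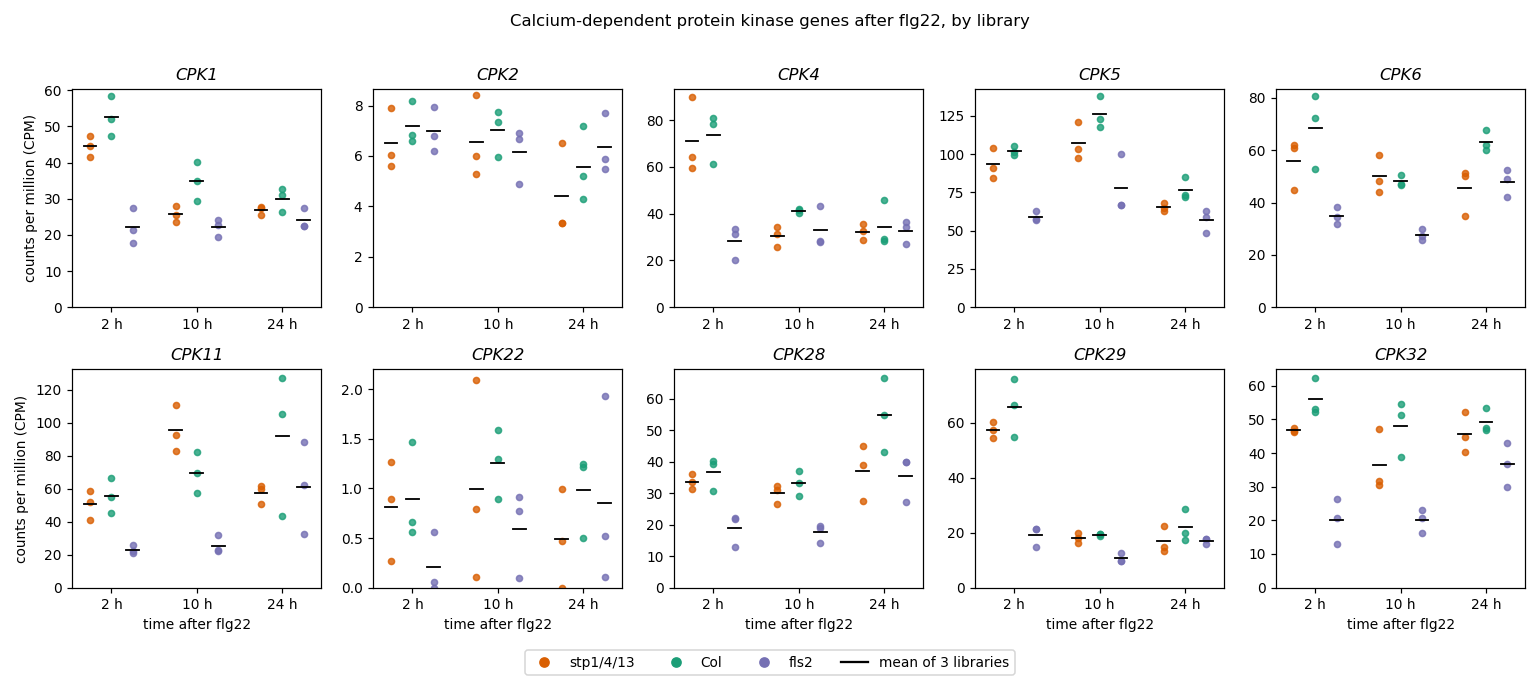
Levels of the 10 kinase genes in CPM (vertical axes, each from 0) in each library at 2, 10 and 24 h after flg22, for stp1/4/13, Col and fls2 from left to right at each time; points are libraries and lines the means of 3. CPK29 stands at 54.9 to 76.1 CPM in Col at 2 h, against 14.9 to 21.5 CPM in fls2, while CPK2 overlaps between genotypes at every time.

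At 10 h, 7 kinase genes were higher in Col than in fls2 and none was lower, when 24.9% of all genes tested were higher and 26.4% lower. CPK11 showed the largest difference, with 82.4, 57.4 and 69.2 CPM in Col, against 21.9, 31.6 and 22.7 CPM in fls2 (1.40 ± 0.19, edgeR adjusted p = 9.7e-06). CPK32 had 51.2, 54.4 and 38.8 CPM in Col, against 20.6, 16.4 and 23.1 CPM in fls2 (1.22 ± 0.20, edgeR adjusted p = 5.4e-05). Neither gene overlapped between the genotypes. CPK28, CPK29, CPK6, CPK5 and CPK1 differed by 0.87, 0.78, 0.75, 0.65 and 0.61 on the log2 scale. CPK5 stood at 123, 118 and 138 CPM in Col, against 66.8, 66.7 and 100.1 CPM in fls2, the third fls2 library standing well above the other 2. CPK4, called at 2 h, had 41.4, 42.0 and 40.5 CPM in Col, against 27.9, 28.3 and 43.1 CPM in fls2 (0.28 ± 0.17, edgeR adjusted p = 0.19). The third fls2 library was above all Col libraries, and without that library CPK4 passed (0.49 ± 0.17, edgeR adjusted p = 0.023). Without replicate 1, CPK1 did not pass (edgeR adjusted p = 0.064). CPK2 and CPK22 did not pass at this time either.

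In stp1/4/13 at 10 h, 6 genes were higher than in fls2, and none lower, against 26.9% and 25.3% of all genes. CPK11 reached 82.9, 92.4 and 111 CPM in stp1/4/13 (1.94 ± 0.19 against fls2, edgeR adjusted p = 2.2e-07). This was the highest group mean of this gene in the 12 groups, a ranking across both count tables that carries no test. CPK32, CPK6, CPK28, CPK29 and CPK5 differed from fls2 by 0.90, 0.89, 0.81, 0.79 and 0.51. The libraries of CPK5 overlapped between stp1/4/13 and fls2, and it was lost without replicate 2 (edgeR adjusted p = 0.13). CPK1 was not called in stp1/4/13 (0.26 ± 0.17, edgeR adjusted p = 0.2), nor was CPK4 (-0.08 ± 0.17, edgeR adjusted p = 0.73). Root markers were lower in Col for 7 of 9 genes at 10 h, with sums of 44.9 to 65.1 CPM in Col and 163 to 219 CPM in fls2 and AGP30 at 0 in Col. In stp1/4/13 7 of the 9 were lower and 1 higher, with sums of 61.3 to 72.6 CPM and COBL9 at 0. Photosynthetic markers were lower in Col than in fls2 for 4 of 6 genes, with sums of 7104 to 9945 CPM in Col and 13577 to 18729.6 CPM in fls2. Over all genes 26.4% were lower in Col than in fls2 at 10 h. Whether the marker differences bear on the kinase values was not tested.

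At 24 h, 2 kinase genes were higher in Col than in fls2, CPK5 and CPK28, and none was lower, when 11% of all genes tested were higher and 7.59% lower. CPK28 had 54.7, 66.6 and 43.2 CPM in Col, against 39.9, 39.8 and 27.1 CPM in fls2 (0.71 ± 0.23, edgeR adjusted p = 0.036), and CPK5 73.4, 84.9 and 72.2 CPM in Col, against 62.9, 58.8 and 48.3 CPM in fls2 (0.52 ± 0.15, edgeR adjusted p = 0.021). Neither overlapped, though the gaps between the groups were small. With the replicate number as a block, 4 genes passed, CPK11 (0.68 ± 0.24, edgeR adjusted p = 0.047) and CPK32 (0.53 ± 0.16, edgeR adjusted p = 0.021) being added. CPK1, not called in the main fit, passed under 1 of the 8 alternatives. CPK11 had 127, 105 and 43.4 CPM in Col, against 88.2, 61.9 and 32.3 CPM in fls2, so that the third library was the lowest in both genotypes. With 1 replicate left out, CPK5 lost its call in all 3 cases and CPK28 without replicate 1 or replicate 2, while CPK11 passed without replicate 3 (edgeR adjusted p = 0.037); a fit of Col and fls2 at 24 h alone called neither CPK5 nor CPK28 (0.12 and 0.11). In stp1/4/13 at 24 h none of the 10 genes was called against fls2 by edgeR, where 11.5% of all genes were higher and 8.39% lower; the smallest adjusted p was 0.19 and 0 of 10 had an unadjusted p below 0.05, and DESeq2 called 0. CPK2 passed there as lower without replicate 1 (edgeR adjusted p = 0.042). The root markers were lower for 6 of 9 genes in Col at 24 h, with sums of 43.9 to 70.8 CPM in Col and 136 to 154 CPM in fls2, and for 8 of 9 in stp1/4/13, with sums of 48.4 to 63.9 CPM; their part was not tested.

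Between 2 h and 24 h the genes took different courses. In Col, CPK29, CPK4, CPK1 and CPK5 were lower at 24 h than at 2 h, with differences of -1.68 ± 0.20, -1.19 ± 0.22, -0.90 ± 0.15 and -0.50 ± 0.15 on the log2 scale, and none was called higher; over all genes tested 15.7% were lower and 17.1% higher. CPK29 averaged 22.0 ± 5.99 CPM at 24 h and 65.9 ± 10.6 CPM at 2 h (SD, n = 3 each). Its libraries of the 2 times did not overlap. The same 4 genes were lower at 24 h in stp1/4/13 (CPK29 -1.85 ± 0.20, CPK4 -1.23 ± 0.22, CPK1 -0.80 ± 0.15, CPK5 -0.59 ± 0.15), where 13.3% of all genes were lower and 14% higher. Without replicate 3, CPK11 and CPK28 were higher at 24 h in Col (edgeR adjusted p = 0.0067 and 0.045), and without replicate 1, CPK2 was lower in stp1/4/13 (0.028). CPK5 lost its call in Col when any 1 replicate was left out, and in stp1/4/13 without replicate 1 or replicate 2. Root markers were lower at 24 h than at 2 h for 8 of 9 genes in Col and in stp1/4/13, and for 1 of 9 in fls2. Heat shock genes were lower at 24 h for 2 of 4 in Col and 3 of 4 in stp1/4/13, and higher for 2 of 4 in fls2, with sums of 3620.0 to 4709 CPM in Col, 1515 to 4013 CPM in stp1/4/13 and 2531 to 7268 CPM in fls2 at 24 h. Photosynthetic markers were higher for 2 of 6 in stp1/4/13 and lower for 3 of 6 in fls2. The part of these genes was not tested. In fls2 none of the kinase genes was called lower, and CPK11, CPK28 and CPK32 were higher at 24 h, by 1.39 ± 0.36, 0.91 ± 0.23 and 0.88 ± 0.20, when 11.9% of all genes were higher and 7.93% lower. CPK32 had 43.1, 36.7 and 30.0 CPM in fls2 at 24 h and 26.2, 13.1 and 20.7 CPM at 2 h. These 3 calls were lost without fls2 replicate 2 at 2 h (edgeR adjusted p = 0.058 to 0.091), and likewise without replicate 1 or the whole of replicate 2. Calls over all genes fell too, from 2544 higher and 1701 lower in the main fit. They were 667 and 521 without fls2 replicate 2 at 2 h, and 111 and 25 without replicate 1. Without the whole of replicate 2 they were 0 and 0, so the loss is not particular to these kinase genes. Without replicate 3, CPK22 was higher in fls2 at 24 h (edgeR adjusted p = 0.014), on counts of 33 and 9 against 1 and 0 at 2 h. Replicate 3 went the other way, with 2 counts at 24 h and 10 at 2 h.

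The difference itself was tested as an interaction, the change over time in Col minus that in fls2. It was below 0 for CPK29 (-1.50 ± 0.28, edgeR adjusted p = 0.0019), CPK4 (-1.40 ± 0.31, edgeR adjusted p = 0.0066), CPK1 (-1.01 ± 0.21, edgeR adjusted p = 0.0042) and CPK32 (-1.15 ± 0.27, edgeR adjusted p = 0.011), against 6.04% of all genes below 0 and 4.5% above. For CPK29, CPK4 and CPK1 the Col level was lower at 24 h while the fls2 level was not called different. For CPK32 the fls2 level was higher at 24 h, and Col differed by -0.27 ± 0.19. All 4 were lost without replicate 1 (edgeR adjusted p = 0.053 to 0.11) or without replicate 2 (0.092 to 0.20). Over all genes, 290 and 336 were then called below 0, against 1296 in the main fit. The other 6 genes were not called, CPK5 and CPK6 lying at -0.42 ± 0.21 and -0.65 ± 0.28. Of the 9 root markers, 6 were also below 0 in this interaction, as was 1 of 4 heat shock genes, HSP90.1 (-1.96, edgeR adjusted p = 0.048), and 2 of 6 photosynthetic markers were above 0. Their part was not tested.

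**Figure D2:**
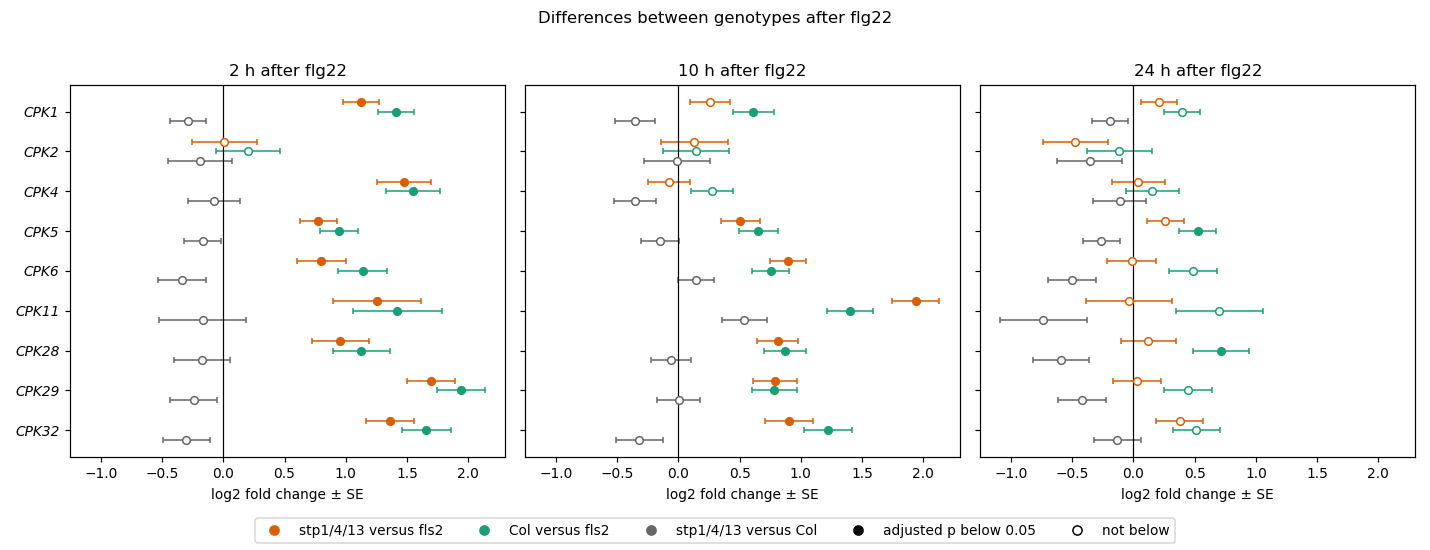
Log2 differences ± SE (horizontal axis) of 9 kinase genes, without the sparsely counted CPK22, for stp1/4/13 against fls2, Col against fls2 and stp1/4/13 against Col, 1 panel per time; filled points passed an adjusted p below 0.05 in edgeR. Filled points run from 0.78 to 1.94 at 2 h, only CPK5 and CPK28 in Col against fls2 are filled at 24 h, and no point of stp1/4/13 against Col is filled.

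Whether sugar uptake by these transporters alters the response was addressed by setting stp1/4/13 against Col. No kinase gene passed at 2, 10 or 24 h in edgeR's quasi-likelihood test, where 0.219%, 12.5% and 9.01% of all genes tested were called. The interaction of time with stp1/4/13 against Col gave 0 of 10 as well, with 0.028% of all genes called and 0 of 10 kinase genes by DESeq2 or at an unadjusted p below 0.05. At an unadjusted p below 0.05 there were 0 of 10 at 2 h, 2 at 10 h (CPK1 and CPK11) and 3 at 24 h (CPK6, CPK28 and CPK29), and DESeq2 called 0 at each time. These fits did not use the pairing by trial. With the replicate number as a block, CPK28 was called lower at 24 h, where 1603 of all genes were higher and 1624 lower. At 2 h the count was also 0 without replicate 2, which holds the stp1/4/13 library with more STP1 reads. All 10 fitted differences lay below 0 at 2 h and again at 24 h, with medians of -0.20 and -0.39, against -0.008 and 0.017 over all genes. The genes are not independent replicates, and this gives no test.

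The intervals of these differences show which sizes remain possible. At 2 h CPK29 had a 95% interval of -0.64 to 0.16 on the log2 scale, CPK5 of -0.48 to 0.15 and CPK4 of -0.53 to 0.37. At 10 h CPK11 was the nearest to a call, with 82.9, 92.4 and 111 CPM in stp1/4/13, against 82.4, 57.4 and 69.2 CPM in Col (0.54 ± 0.18, edgeR adjusted p = 0.065), and without the 9-library estimate shared with fls2 it passed (edgeR adjusted p = 0.013). Its lowest stp1/4/13 library was only just above its highest Col library. Without replicate 3, CPK32 was lower in stp1/4/13 at 10 h (-0.68 ± 0.18, edgeR adjusted p = 0.045). At 24 h CPK28 had 44.9, 39.1 and 27.5 CPM in stp1/4/13, against 54.7, 66.6 and 43.2 CPM in Col (-0.59 ± 0.23, edgeR adjusted p = 0.11), and with the replicate number as a block it passed (-0.60 ± 0.19, edgeR adjusted p = 0.044). CPK6 had 51.3, 50.1 and 35.0 CPM in stp1/4/13, against 60.0, 67.8 and 62.0 CPM in Col (-0.50 ± 0.20, edgeR adjusted p = 0.11). CPK11 had 61.4, 60.0 and 50.6 CPM in stp1/4/13 at 24 h, against 127, 105 and 43.4 CPM in Col (-0.74 ± 0.35, edgeR adjusted p = 0.19), and passed without replicate 3 (edgeR adjusted p = 0.013). In the same contrast 3 of 6 photosynthetic markers were higher in stp1/4/13 at 24 h, with sums of 12902 to 16509.9 CPM in stp1/4/13 and 5865 to 11574 CPM in Col. Of the root markers 1 of 9 was lower, a share near the 9.01% of all genes called in either direction. At 10 h 4 of 6 photosynthetic markers were higher, with sums of 14928 to 18598 CPM in stp1/4/13 and 7104 to 9945 CPM in Col. At that time 2 of 4 heat shock genes were lower, and 12.5% of all genes were called in either direction. The part of these markers was not tested.

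In the sugar experiment, 5 of the 9 genes other than CPK22 were higher in 2DG_1mM than in Suc_0mM and none was lower, when 21.3% of all genes tested were higher and 27.9% lower. These calls rest on the titles: grouped by the treatment label, none of the 5 passed (edgeR adjusted p = 0.069 for CPK29 to 0.71 for CPK6). CPK29 rose most, with 87.6, 78.4 and 121 CPM in 2DG_1mM, against 8.28, 5.70 and 6.06 CPM in Suc_0mM (3.91 ± 0.29, edgeR adjusted p = 2.6e-06). CPK28 had 55.4, 77.3 and 69.0 CPM in 2DG_1mM, against 34.2, 9.41 and 14.8 CPM in Suc_0mM (1.88 ± 0.38, edgeR adjusted p = 0.0016). CPK1 had 53.9, 63.8 and 60.6 CPM in 2DG_1mM, against 29.3, 13.1 and 14.7 CPM in Suc_0mM (1.72 ± 0.30, edgeR adjusted p = 6e-04). None of the 3 overlapped, although Suc_0mM replicate 1 was clearly the highest of its group for CPK28 and CPK1.

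Of the activators of flg22-responsive genes, CPK4 and CPK6 rose. CPK4 had 40.2, 55.2 and 48.1 CPM in 2DG_1mM, against 35.3, 12.8 and 12.4 CPM in Suc_0mM (1.34 ± 0.37, edgeR adjusted p = 0.01), and lost its call without replicate 2 or without replicate 3. CPK6 had 72.7, 71.4 and 64.7 CPM in 2DG_1mM, against 40.5, 19.6 and 30.4 CPM in Suc_0mM (1.28 ± 0.27, edgeR adjusted p = 0.0021). Their relatives did not pass in edgeR: CPK5 differed by 0.50 ± 0.19 (edgeR adjusted p = 0.051), which DESeq2 called (adjusted p = 0.029), and CPK11 by 0.27 ± 0.26 (edgeR adjusted p = 0.42). CPK5 had 84.3, 83.0 and 80.9 CPM in 2DG_1mM, against 65.3, 57.4 and 61.0 CPM in Suc_0mM, a small step without overlap. CPK11 overlapped between the groups. CPK32 (0.69 ± 0.33) and CPK2 (0.64 ± 0.53) were not called either.

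Against Suc_25mM, 6 of these 9 genes were higher in 2DG_1mM and none was lower, when 21.4% of all genes were higher and 28% lower. CPK29 stood at 15.8, 9.64 and 12.8 CPM in Suc_25mM (3.09 ± 0.28 for 2DG_1mM over it, edgeR adjusted p = 8.9e-06). CPK1, CPK32, CPK28, CPK6 and CPK11 differed by 1.50, 1.08, 1.08, 1.08 and 0.68 on the log2 scale. The libraries of CPK11 overlapped between the groups. Without replicate 3, which leaves 2 libraries a group, 2 of the 6 passed, CPK1 and CPK29, and without replicate 1 CPK11 and CPK32 did not while CPK4 did (edgeR adjusted p = 0.2, 0.11 and 0.032). The 2 comparisons share the 2DG_1mM libraries. CPK32 was called here and not against Suc_0mM, where its libraries spread from 23.0 to 66.2 CPM.

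In Suc_25mM against Suc_0mM, 0 of these 9 genes passed edgeR's test, when 6.41% of all genes were higher and 6.08% lower. At an unadjusted p below 0.05 there was 1, CPK29, which DESeq2 called (adjusted p = 0.04). CPK28 had 34.5, 38.3 and 35.4 CPM in Suc_25mM, against 34.2, 9.41 and 14.8 CPM in Suc_0mM (0.80 ± 0.37, edgeR adjusted p = 0.2), and CPK29 15.8, 9.64 and 12.8 CPM in Suc_25mM, against 8.28, 5.70 and 6.06 CPM in Suc_0mM (0.82 ± 0.27, edgeR adjusted p = 0.069). Both were without overlap. Without Suc_0mM replicate 1, CPK4 (1.24 ± 0.29, edgeR adjusted p = 0.021) and CPK28 (1.39 ± 0.30, edgeR adjusted p = 0.013) passed. In this fit the photosynthetic markers had sums of 5634 to 11467 CPM in 2DG_1mM, 11137 to 17046 CPM in Suc_25mM and 27492 to 40653 CPM in Suc_0mM. Heat shock genes had sums of 990 to 1523, 1103 to 5153 and 77.5 to 4005 CPM in the same order. The Suc_0mM libraries were thus uneven in them, and no heat shock gene was called between the groups. The root markers had 8.49 to 22.5, 84.0 to 123 and 74.2 to 119.6 CPM in these groups. Of these markers, 7 of 9 were lower in 2DG_1mM than in Suc_0mM, beside 27.9% of all genes, and EXPA7 was at 0 in 2DG_1mM. Their part in the kinase differences was not tested.

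**Figure D3:**
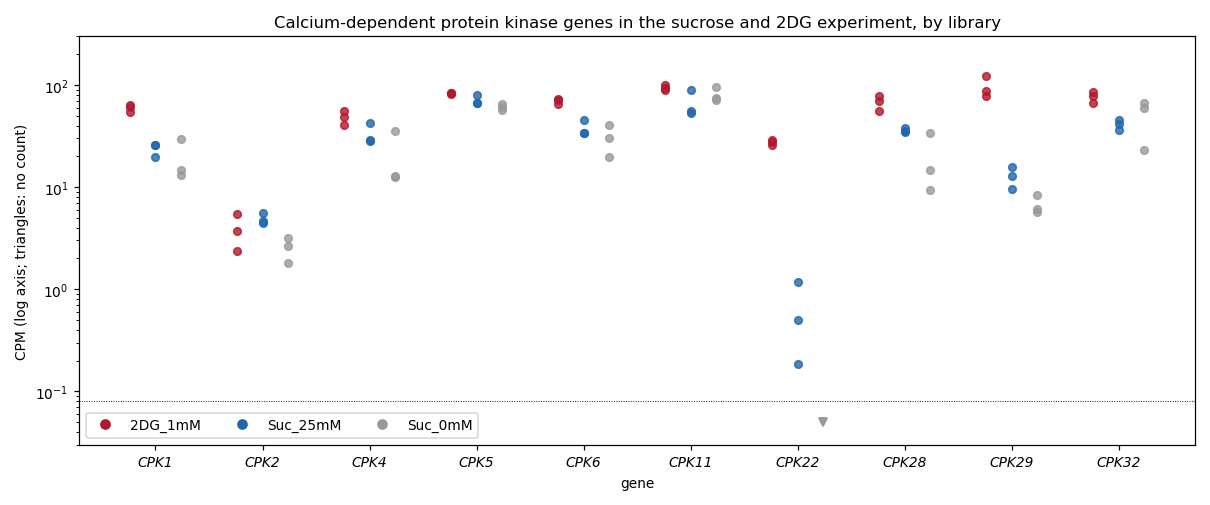
Levels in CPM (log axis) of the 10 kinase genes in the 3 libraries of 2DG_1mM, Suc_25mM and Suc_0mM, from left to right for each gene; triangles below the dotted line stand for libraries with no count. CPK29 stands at 78.4 to 121 CPM in 2DG_1mM, 9.64 to 15.8 CPM in Suc_25mM and 5.70 to 8.28 CPM in Suc_0mM, and CPK22 has no count in Suc_0mM.

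CPK22 was close to silent in every group but 2DG_1mM. It had 27.8, 28.9 and 26.1 CPM in 2DG_1mM, 0.186, 1.17 and 0.497 CPM in Suc_25mM and no count in the 3 Suc_0mM libraries. Against a floor of 3 counts over the Suc_0mM group, it was at least 338-fold higher in 2DG_1mM (818 counts) and at least 7.57-fold higher in Suc_25mM (18 counts); the floor covers counting error only. It entered the fit of the sugar experiment through its 2DG_1mM reads, and no test is given for it there. In the flg22 experiment, CPK22 had 0 to 2.09 CPM, with 0.561, 1.47 and 0.663 CPM in Col and 0.0580, 0 and 0.564 CPM in fls2 at 2 h. CPK22 lies in a row of CPK genes on chromosome 4, where CPK31, CPK27, CPK22 and CPK21 follow each other and CPK23 is close by. Reads of such close relatives could be split or lost in counting, so its values and those of its neighbours are uncertain. Of these neighbours, CPK27 averaged 40.9 ± 8.68 CPM in 2DG_1mM and 5.32 ± 1.77 CPM in Suc_0mM (3.01 ± 0.32, edgeR adjusted p = 2.2e-05). CPK31 (1.05 ± 0.62), CPK21 (0.11 ± 0.27) and CPK23 (0.61 ± 0.38) were not called.

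The other 24 CPK genes show how the 10 sit in their family. At 2 h 16 of the 24 had enough reads to be tested, and 9 were higher in Col than in fls2 and none lower, with a median of 0.56 over the 16; over all genes 18.7% were higher and 16.1% lower. The largest were CPK27 (2.75 ± 0.25), CPK10 (2.61 ± 0.18) and CPK9 (2.21 ± 0.20), each above the 1.94 of CPK29. The uncertainty of counting in the row around CPK22 applies to CPK27 in every comparison. In 2DG_1mM against Suc_0mM 6 of 16 were higher and none lower, beside 21.3% and 27.9% of all genes, led by CPK27 (3.01 ± 0.32), CPK10 (2.25 ± 0.33) and CPK30 (1.57 ± 0.25). A pair of genes chosen after their values were seen is given without a test between the experiments. CPK9 had 172, 158 and 135 CPM in Col, against 39.4, 31.4 and 41.8 CPM in fls2 at 2 h, and 2DG_1mM differed from Suc_0mM by -0.14 ± 0.25 (edgeR adjusted p = 0.66). CPK8 differed by 0.04 ± 0.16 at 2 h (edgeR adjusted p = 0.86) and 1.09 ± 0.22 (edgeR adjusted p = 0.0018) in 2DG_1mM. In stp1/4/13 against Col, CPK27 was lower at 10 h, with 22.0, 19.9 and 24.4 CPM in stp1/4/13, against 44.5, 31.0 and 40.0 CPM in Col (-0.72 ± 0.18, edgeR adjusted p = 0.014). Its groups did not overlap. None of the 10 kinases was called in that contrast.

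**Figure D4:**
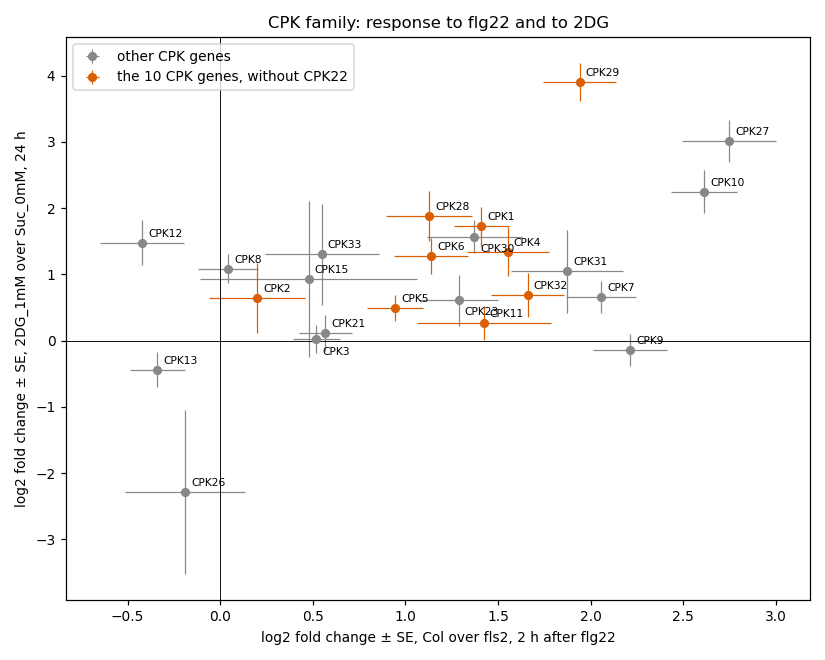
Log2 difference ± SE of Col over fls2 at 2 h (horizontal axis) and of 2DG_1mM over Suc_0mM at 24 h (vertical axis) for 9 of the 10 kinase genes and the other CPK genes tested in both fits, which share no libraries. CPK29 lies at 1.94 and 3.91, CPK27 at 2.75 and 3.01, and CPK9 at 2.21 and -0.14.

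Genes that work with these kinases were followed through lists. Of 16 known substrates and partners, 12 were higher in Col than in fls2 at 2 h and none lower, beside 18.7% and 16.1% of all genes. WRKY8, a transcription factor phosphorylated by CPK4, CPK5, CPK6 and CPK11, differed by 5.74 ± 0.50, the ethylene synthesis gene ACS2 by 4.66 ± 0.27 and the immune transcription factor gene WRKY33 by 4.00 ± 0.42. Of 4 genes used as reporters of flg22 signalling, FRK1 (7.70 ± 0.56), CYP81F2 (5.50 ± 0.36) and NHL10 (5.39 ± 0.42) were higher. PHI-1 was not called and lay below 0 (-0.84 ± 0.52, edgeR adjusted p = 0.23). These 4 genes are not read here as a measure of CPK activity. In stp1/4/13 against Col at 10 h, NHL10 (-1.59 ± 0.20, edgeR adjusted p = 0.00011), FRK1 (-0.79 ± 0.14, edgeR adjusted p = 0.0013) and ACS6 (-1.08 ± 0.23, edgeR adjusted p = 0.0054) were lower. At 24 h RBOHD, the oxidase that CPK5 phosphorylates, was lower in stp1/4/13 (-0.98 ± 0.29, edgeR adjusted p = 0.041), as was PHI-1 (-1.70 ± 0.51, edgeR adjusted p = 0.044). The libraries of PHI-1 overlapped between stp1/4/13 and Col. Whether these genes differed more than the kinase genes was not tested.

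Of 13 calcium channel and pump genes, 4 were higher and 4 lower in Col than in fls2 at 2 h, where 18.7% of all genes were higher and 16.1% lower. The plasma membrane calcium pump gene ACA12 differed by 3.22 ± 0.26, and the vacuolar exchanger genes CAX1 and CAX3 by -3.39 ± 0.34 and -2.61 ± 0.35. Of 9 calmodulin-like genes, 5 were higher at 2 h, led by CML42 (3.18 ± 0.25), CML9 (3.14 ± 0.20) and TCH3 (2.94 ± 0.32). In 2DG_1mM against Suc_0mM all 9 calmodulin-like genes were higher, where 21.3% of all genes were, with a median of 3.67, against -0.21 over all genes; CML37 differed by 6.19 ± 0.94 and CML41 by 5.58 ± 0.47. The pump genes ACA13 and ACA12 differed by 7.16 ± 0.61 and 5.21 ± 0.45, and the channel gene CNGC2 by -4.08 ± 0.83. Of the substrates and partners, 5 of 16 were higher there and 1 lower, beside 21.3% and 27.9% of all genes, a share of higher genes near that of all genes. The 3 largest were WRKY8 (7.41 ± 0.81), WRKY28 (4.49 ± 0.43) and ACS2 (4.46 ± 0.44). Of the clade A PP2C genes, whose phosphatases act against abscisic acid signalling, 6 of 7 tested were higher in 2DG_1mM than in Suc_0mM, among them HAI1 (4.69 ± 0.61) and ABI2 (3.50 ± 0.35).

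Over the 12 groups, each set within its own fit, the patterns were compared for 8 of the 10 genes, without the sparsely counted CPK2 and CPK22. Of these 8, CPK1 and CPK29 were the most similar pair (Pearson r = 0.97 over 12 groups) and CPK4 and CPK11 the least (r = 0.24), which are close relatives. Among 11300 genes, the 3 closest in pattern to CPK28 were WRKY51, VPS2.1 and RHL41, with r of 0.99, 0.98 and 0.98. Closest to CPK5 were GGT4, BAK1 and P4H5, each at 0.98, and closest to CPK32 were APK2A, UBC33 and CMPG1, each at 0.99. CPK29 was closest to GSL05, also known as PMR4, a callose synthase gene, with r of 0.98, followed by the loci AT5G66390 and AT3G09570, with 0.98 and 0.97. Groups of an experiment share trials, and those of the flg22 experiment also their medium. The correlations are descriptions with no test.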

How the data were processed

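Raw counts of 3′ reads per locus, deposited by the authors as 2 tables, were used as given, with 0 columns left unmapped to a sample. Per the submitters' processing notes, fastp 0.19.7, STAR 2.6.1b and featureCounts 1.6.0 were used with TAIR10; whether counting used the strand is not given in the sources used here. Libraries were strand-specific (BrAD-seq), per the labels' protocols. CPM here are counts scaled to the deposited library total, not scaled for length, so levels are not compared between genes. CPK2, CPK4 and CPK28 overlap other annotated genes, CPK4 one on the opposite strand.

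Comparisons were fitted with edgeR 4.0.16 in R 4.3.3 (TMM scaling, filterByExpr, quasi-likelihood test, two-sided, Benjamini-Hochberg over all genes tested, threshold 0.05): 18 libraries at 2 and 24 h (21463 genes), 9 at 10 h (19561) and 9 of the sugar experiment (19727). Totals were 17.2 to 19.6 M counts at 2 h, 9.46 to 11.3 M at 10 h, 16.0 to 20.1 M at 24 h and 8.05 to 12.9 M in the sugar experiment. The SE of a log2 difference was taken from its unshrunken coefficient and F value, and 95% intervals from the t distribution. Levels at 10 h stand beside the other times without a test, because they are in another count table and were fitted separately. Groups follow the sample titles. Alternatives were DESeq2 1.42.0, DESeq2 size factors, no filter on low counts, fits of the compared groups alone, a replicate block, leaving out each replicate, and grouping by the treatment label. Leaving out single libraries was chosen after seeing the data.

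The design text gives 3 independent trials, each with 1 sample of every condition, and the replicate number was read as the trial. The main fits had no term for the trial. Their p-values thus measure the spread between libraries of a group, with offsets shared by a trial left in it. The replicate block among the alternatives takes such offsets out. Deviations from group means of same-numbered libraries had a median correlation of 0.352 (0.0284 to 0.712) at 2 and 24 h, 0.0484 (-0.183 to 0.173) at 10 h and 0.0819 (-0.04 to 0.372) in the sugar experiment, against medians of -0.161, -0.0132 and -0.0415 for differently numbered libraries; not every pair was over 0.1, so the pairing was taken from the design text. The kinase genes and all lists were chosen with earlier results of these data known. From each list at most 3 genes per comparison are named, those with the largest change past the threshold and a mean of at least 5 CPM; CPK8, CPK9 and the neighbours of CPK22 were named after their values were seen. Of 32833 loci, 32548 matched the RefSeq annotation. The promoter window of CPK4 is not reported here. A list of CDPK-related kinases matched 2 of 8 genes and was not used. The scripts were tested on simulated data.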

Additional observations from a re-analysis of the deposited data

Results flagged for a closer look

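The change from 2 h to 24 h after flg22 differed between Col and fls2 for 4 kinase genes, by the test of the difference itself, Col minus fls2 (edgeR's quasi-likelihood test, adjusted over all genes). CPK29 averaged 22.0 CPM at 24 h and 65.9 CPM at 2 h in Col, and 17.1 CPM and 19.3 CPM at these times in fls2, a difference of -1.50 on the log2 scale. CPK4 averaged 34.4 CPM at 24 h and 73.6 CPM at 2 h in Col, and 32.6 CPM and 28.3 CPM in fls2, a difference of -1.40. CPK1 averaged 30.1 CPM at 24 h and 52.6 CPM at 2 h in Col, and 24.2 CPM and 22.2 CPM in fls2, a difference of -1.01. CPK32 averaged 49.2 CPM at 24 h and 55.9 CPM at 2 h in Col, and 36.6 CPM and 20.0 CPM in fls2, a difference of -1.15. All 4 lost their call when replicate 1 or replicate 2 was left out, where 2 libraries a group remained. Calls below 0 over all genes were then 290 and 336, against 1296 in the main fit.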

How the results depend on the processing

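The log2 differences of the 10 kinase genes in 17 comparisons gave 170 values, of which 60 were called. These include CPK22 in the comparisons of the sugar experiment, where its calls are not read as tests. Of the 60, 53 kept their sign under every alternative, and 31 passed the threshold under every alternative. Among the 31, CPK1, CPK22 and CPK29 in 2DG_1mM against Suc_25mM passed with the opposite sign when grouped by the treatment label. Of the 110 not called, 22 were called under some alternative and 40 changed sign under one. Grouping by the treatment label, which exchanges 2DG_1mM and Suc_25mM, turned the differences of 2DG_1mM from Suc_25mM to -1.50 (CPK1), -0.70 (CPK4), -1.08 (CPK6), -0.68 (CPK11), -5.62 (CPK22), -1.08 (CPK28), -3.09 (CPK29) and -1.08 (CPK32), with 0 higher and 7 lower; it gave 1 higher in 2DG_1mM and 6 higher in Suc_25mM against Suc_0mM. This follows from the exchange itself. CPK1 and CPK6 in Suc_25mM against Suc_0mM, not called, ranged from -0.080 (without replicate 2) to 0.61 and from -0.025 (without Suc_0mM replicate 2) to 0.41 with libraries left out. The replicate block gave 4 higher in Col against fls2 at 24 h and 1 lower in stp1/4/13 against Col at 24 h, and changed the count by no more than 1.5 times in the other comparisons. Fits of the compared groups alone gave 0 higher in Col against fls2 at 24 h, 1 higher in stp1/4/13 against Col at 10 h and 0 higher in Suc_25mM against Suc_0mM, where DESeq2 gave 2. Without the filter on low counts, 1 was higher in stp1/4/13 against Col at 10 h. With replicates or single libraries left out, the counts ranged as follows: 5 to 9 higher in stp1/4/13 against fls2 at 2 h and 0 to 1 lower at 24 h; 0 to 2 higher in Col against fls2 at 24 h; 0 to 1 higher and 0 to 1 lower in stp1/4/13 against Col at 10 h, and 0 to 1 lower at 24 h. They ranged over 0 to 2 higher at 24 h against 2 h in Col, 0 to 4 in fls2, 0 to 4 below 0 in the interaction of Col and fls2, 0 to 3 higher in Suc_25mM against Suc_0mM and 3 to 7 in 2DG_1mM against Suc_25mM. Counts over all genes moved as well. The interaction of Col and fls2 had 290, 336 and 1335 genes below 0 without replicates 1, 2 and 3, against 1296 in the main fit. In stp1/4/13 against Col at 24 h, the main fit called 1934 genes in both directions. There, 10 were higher and 12 lower without replicate 2, and 1603 and 1624 with the replicate block. Fits of the compared groups alone gave 61 and 123. The cause was not tested. The counts of kinase genes include CPK22, which in the sugar experiment entered the fit through its 2DG_1mM reads, so that its calls there are not read as tests.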

Other observations

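FLS2, the flg22 receptor gene, differed in the sugar experiment, where no flg22 was given. It had 1.41, 2.80 and 2.57 CPM in 2DG_1mM, 37.0, 15.9 and 28.6 CPM in Suc_25mM and 46.2, 32.3 and 9.55 CPM in Suc_0mM (-3.60 ± 0.55 for 2DG_1mM over Suc_0mM, edgeR adjusted p = 0.00027). Its 2DG_1mM libraries were below all others, in the group where CPK29, CPK28 and CPK1 were higher. The sugar transporter gene STP13 had 175, 183 and 138 CPM in 2DG_1mM, 37.5, 43.5 and 23.7 CPM in Suc_25mM and 21.6, 18.5 and 7.45 CPM in Suc_0mM (3.47 ± 0.38 for 2DG_1mM over Suc_0mM, edgeR adjusted p = 2.8e-05), without overlap between 2DG_1mM and the other groups. Both genes served as a check of the genotypes in the flg22 experiment.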
